A study of Mus musculus with 6 samples.

Results

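The 38 genes described here supply cells with amino acids or respond when amino acids run short. They were taken by name from 5 roles: 6 factors of the ATF4 pathway, 6 enzymes of serine, asparagine and proline synthesis, 5 enzymes that use folate to carry single carbon units, 9 amino acid transporters and 12 cytosolic aminoacyl-tRNA synthetases. All 38 had a line among the 55401 genes of the count tables, and all 38 had enough reads to be tested. RNA was sequenced from mouse CD4+ T cells isolated on magnetic beads from spleen as naive cells, then stimulated through CD3 and CD28 for 24 h. The control group (3 libraries) carries the genotype label WT. The other group (3 libraries) carries the label Satb1 conditional knockout, described in the series as Satb1 flox/flox with CD4-Cre, and is called Satb1 cKO below. CD4-Cre is a transgene in which regulatory sequences of Cd4 drive the Cre recombinase. It is active from the thymic stage that expresses CD4, so CD8 lineage cells of these mice are affected too. The labels give neither the age of the mice nor whether controls carried Cre, so Cre and the loss of Satb1 cannot be told apart as sources of a difference. Nor is it stated that each library stands for its own mouse, and the p-values therefore measure only the spread between these libraries, which may be technical.

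ATF4 is a transcription factor whose protein is made in larger amounts when the initiation factor eIF2 is phosphorylated, for instance by the kinase GCN2 when uncharged tRNA builds up. With a C/EBP partner it binds a composite DNA element and switches on genes for amino acid import, amino acid synthesis and the charging of tRNA, together with its own feedback inhibitors. Activated T cells import large amounts of neutral amino acids and build serine and formyl groups for nucleotide synthesis, so many of these genes are switched on in the first day of stimulation. Since ATF4 itself is controlled mainly in translation, transcript counts of Atf4 do not measure its protein.

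Libraries held between 14895389 and 20266626 reads on genes. Satb1, the deleted gene, stood at 712, 851 and 727 CPM (counts per 1000000 reads, with libraries scaled by the TMM method) in control replicates 1, 2 and 3 and at 426, 546 and 462 in Satb1 cKO. These counts span the whole gene, including exons that Cre may leave in place. Of 10 T cell genes, 6 were called lower (Cd4, Cd28, Cd2, Lck, Cd3d and Trac), 1 higher (Cd5) and 3 neither way, and their summed level went from between 3666 and 3806 CPM in control to between 2819 and 2920 CPM in Satb1 cKO. Cd4 alone fell from between 681 and 721 CPM to between 204 and 212. Markers of several other cell types were higher in Satb1 cKO. Summed over 8 red cell genes found in the tables, the level went from 24.9 to 31.4 CPM in control to 310 to 1863 CPM in Satb1 cKO. Over 14 myeloid markers it went from 78.8 to 91.9 CPM to 137 to 256 CPM, and 12 of the 13 tested were called higher. Over 10 B cell markers it was 231 to 296 CPM and 248 to 310 CPM. Of 5 platelet markers, 2 were tested and both called higher, and Gp1bb was at 0 in all 6 libraries. Of 5 NK cell markers, 1 (Eomes) was tested and called higher, and their sum went from 4.78 to 6.92 CPM in control to 10.8 to 15.2 CPM in Satb1 cKO. Of the CD8 T cell markers, Cd8a was called higher (0.985, 0.873 and 0.519 CPM against 7.56, 4.81 and 6.46 CPM) and Cd8b1 was not. Reads that fell on no gene made up 9.18 to 9.50% of reads in the control tables and 7.32 to 7.61% in Satb1 cKO. The part of these differences in the results below was not tested. In bulk RNA, a change in the number of cells of a type and a change in RNA per cell cannot be told apart.

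Of the 38 members, 24 were called higher and 1 lower in Satb1 cKO, and 13 were not called (adjusted p under 0.05 in edgeR's quasi-likelihood test, adjusted over all 13364 genes tested). This is 63.2% of the members called higher, beside 21.6% of all tested genes called higher and 20.7% called lower (42.3% in either direction). The members were chosen with earlier results of these data known, so this share describes the list and is no independent evidence. All 3 Satb1 cKO libraries lay above all 3 control libraries for 25 members (65.8%) and below them for 2, beside 27.0% and 26.5% of all tested genes (53.4% in either direction). The rises were small. Among the members called higher the fold ranged from 1.07 to 1.81 with a median of 1.21; 2 reached 1.5-fold, 11 lay from 1.2-fold to below 1.5-fold, and 11 lay below 1.2-fold. The median log2 fold change of the 38 members was 0.18, and that of all tested genes was 0.00. Without regard to sign, the medians were 0.20 and 0.22. These are medians of estimates, which include counting noise, and the tested genes were not matched to the members in level. Of the members, 29 had a control mean of 100 CPM or more, a level at which small changes are more readily called. The part of level in the share of members called was not tested. Tested against a minimum fold change of 1.2 (glmTreat in edgeR), 5 members were called higher and 0 lower. That is 13.2% of the members, beside 9.14% of all tested genes called higher and 8.39% called lower (17.5% in either direction). The 5 were Slc3a2, Slc7a5, Slc7a1, Slc7a11 and Sesn2. Without hemoglobin, immunoglobulin, T cell receptor and mitochondrially encoded genes, 23 members were called higher and 1 lower. That fit left out only the named genes. Reads that other cells may add to member genes stay in it, so it cannot test the part of those cells.

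**Figure D1:**
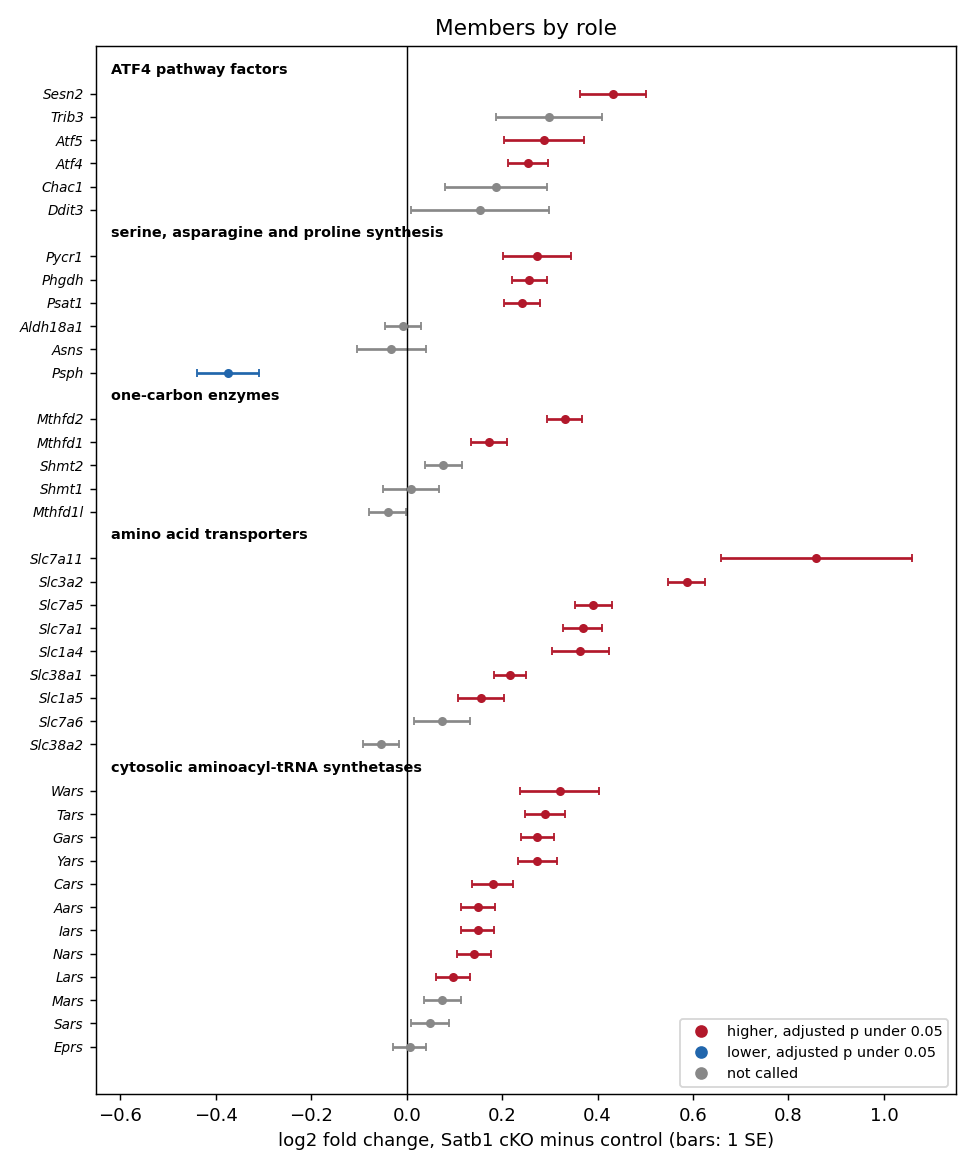
Log2 fold change of each member (points, Satb1 cKO minus control, bars of 1 SE), ordered within its role and coloured by call. Most points lie right of 0, the transporters Slc7a11 (0.86) and Slc3a2 (0.59) lie farthest right, and Psph (-0.38) is the 1 member called lower.

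The promoters of many members carry the element through which ATF4 acts with its C/EBP partner, and stretches with that element are printed here to show the sequence that members share. Promoter windows of 300 bases (250 before the start to 50 after, RefSeq, GRCm38.p6) were found for 31 of the 38 members; Cars, Lars, Nars, Slc1a5, Slc38a1, Slc7a5 and Wars had none in the table used. The letters TGATGNAA were searched on both strands, and TGATGCAA as a strict form contained in them. The first was found in 11 of 31 members (35.5%) and in 4.51% of the 27025 genes with a window. The strict form was found in 8 of 31 members (25.8%) and in 1.03% of all genes. Since members were listed partly as known ATF4 targets, this share describes the list and is no independent evidence. In the lines below, capitals mark the match, read 5′ to 3′ along the gene's own strand. Shown are the called members with the strict form that had the largest changes (Slc7a11 with 2 matches, Slc1a4, Tars), then Chac1 and Asns, known ATF4 targets that were not called.
Slc7a11, upstream match (chr3:50443661-50443690, minus strand): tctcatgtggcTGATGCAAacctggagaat
Slc7a11, downstream match (chr3:50443642-50443671, minus strand): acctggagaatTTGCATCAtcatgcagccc
Slc1a4 (chr11:20332699-20332728, minus strand): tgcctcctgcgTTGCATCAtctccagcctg
Tars (chr15:11399655-11399684, minus strand): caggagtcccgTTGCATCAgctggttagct
Chac1 (chr2:119351038-119351067, plus strand): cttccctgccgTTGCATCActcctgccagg
Asns (chr6:7693214-7693243, minus strand): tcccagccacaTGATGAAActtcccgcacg

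With the start base counted as 0, the first base of the match lies at -66 and -47 in Slc7a11, at -4 in Slc1a4, at -15 in Tars, at -193 in Chac1 and at -23 in Asns. The match of Asns holds the relaxed form only. The other members with a match were Aars, Iars, Pycr1 and Yars (strict) and Gars and Trib3 (relaxed). Of the 11 members with a match, 8 were called higher and 0 lower, with a median log2 fold change of 0.27. Of the 20 members with a window and no match, 9 were called higher and 1 lower, with a median of 0.12. The 7 members with no window in the table were all called higher, with a median of 0.18. Slc3a2, Sesn2, Slc7a1 and Mthfd2 rose without a match in their windows, which says only that these letters are not there. Outside the members, 256 tested genes had a match, of which 27.3% were called higher and 23.4% lower, with a median of 0.02. Among 9143 tested genes without a match, from which members were not taken out, these shares were 23.4% and 22.0%.

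**Figure D2:**
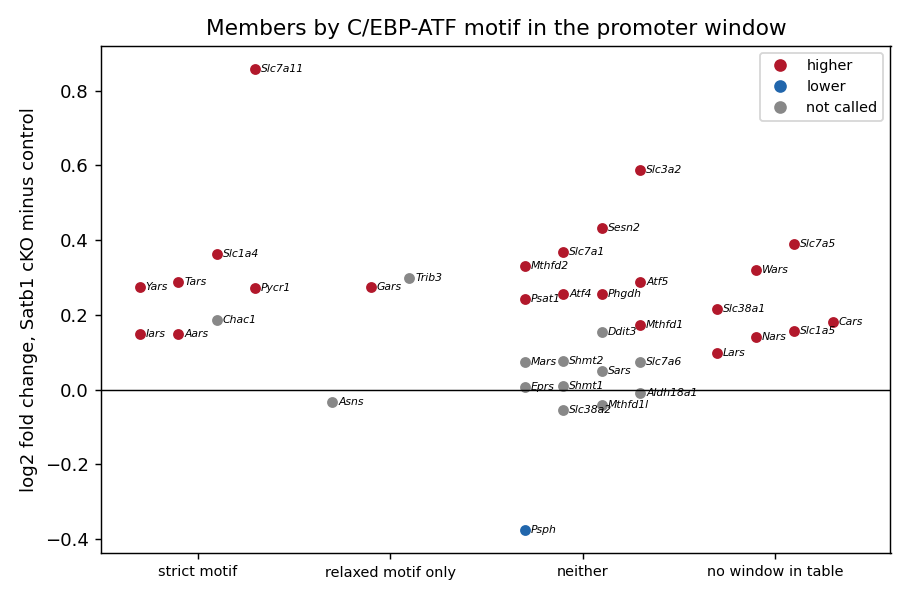
Log2 fold change of each member (vertical axis, Satb1 cKO minus control) by whether its promoter window holds TGATGCAA (strict), only TGATGNAA (relaxed), neither, or is not in the table; horizontal offsets only separate labels. Members with the strict form range from 0.15 (Aars, Iars) to 0.86 (Slc7a11), and the groups overlap.

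Calls in each role below stand beside 21.6% of all tested genes called higher and 20.7% called lower. Of the 6 ATF4 pathway factors, 3 were called higher and 0 lower. Atf4 (ENSMUSG00000042406.8, chromosome 15, 80255184 to 80257541, GRCm38), the transcription factor itself, stood at 538, 505 and 516 CPM in control replicates 1, 2 and 3 and at 609, 653 and 600 CPM in Satb1 cKO. The groups did not overlap, and the rise was 1.19-fold (log2 fold change 0.26, SE 0.042, adjusted p = 0.000554). Sesn2 (ENSMUSG00000028893.8), a stress-induced leucine sensor that restrains the growth kinase complex mTORC1, rose most of the 6. It stood at 142, 122 and 126 CPM in control and at 161, 175 and 190 CPM in Satb1 cKO, a 1.35-fold rise (log2 fold change 0.43, SE 0.069, adjusted p = 0.000462). Against a minimum of 1.2-fold Sesn2 kept its call (adjusted p = 0.026).

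Atf5, a related factor that is also controlled in translation, was far less abundant, at 18.8, 16.3 and 16.3 CPM in control and 21.1, 21.0 and 20.7 CPM in Satb1 cKO. It was called higher (log2 fold change 0.29, SE 0.084, adjusted p = 0.0168), but not without control replicate 2 (adjusted p = 0.0685), without control replicate 3 (0.0702) or in DESeq2 (0.0647). The other 3 factors, which act downstream of ATF4, did not pass the test. Trib3, a pseudokinase induced by ATF4 that feeds back on it, stood at 34.7, 43.3 and 45.7 CPM in control and 42.9, 54.9 and 53.7 CPM in Satb1 cKO, and these ranges overlapped. Its log2 fold change was 0.30 (SE 0.111, adjusted p = 0.0505). It was called without control replicate 3 (adjusted p = 0.0378), without Satb1 cKO replicate 1 (0.0106), in DESeq2 (0.0409) and with no filter on low counts (0.000235). Chac1, an enzyme that degrades glutathione, had a log2 fold change of 0.19 (SE 0.107, adjusted p = 0.185). Ddit3, encoding the pro-apoptotic factor CHOP, stood at 7.88, 9.0 and 11.7 CPM in control and 10.8, 10.9 and 9.96 CPM in Satb1 cKO, inside the control range (log2 fold change 0.15, SE 0.145, adjusted p = 0.428). The exons of Ddit3 share 10.9% of their bases with other genes. These are Gm4189 and the synthetase gene Mars on the opposite strand, and another identifier named Ddit3 on the same strand.

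Of the 6 enzymes that make serine, asparagine and proline, 3 were called higher and 1 lower. The serine pathway runs from the dehydrogenase PHGDH through the aminotransferase PSAT1 to the phosphatase PSPH, and its genes went both ways. Phgdh rose from 492, 523 and 518 CPM to 620, 615 and 597 CPM, with no overlap (log2 fold change 0.26, SE 0.037, adjusted p = 0.000221). Psat1 rose from 537, 550 and 571 CPM to 635, 673 and 652 CPM (0.24, SE 0.038, adjusted p = 0.000407). In Psat1, too, every Satb1 cKO library lay above every control library.

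Psph, the last step, was the 1 member called lower. It stood at 77.9, 84.1 and 87.5 CPM in control and at 61.3, 69.9 and 61.0 CPM in Satb1 cKO, which is 0.771 of the control level (log2 fold change -0.38, SE 0.065, adjusted p = 0.000772). The groups did not overlap, and the call held without each library in turn (log2 fold change from -0.45 to -0.34). Exons of Psph share 10.4% of their bases with Cct6a on the opposite strand, and the strand setting of the counting is not given in the sources used here.

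Pycr1, which completes proline synthesis in mitochondria, rose from 22.2, 24.6 and 21.9 CPM to 27.2, 28.0 and 27.6 CPM (log2 fold change 0.27, SE 0.071, adjusted p = 0.00917). Aldh18a1, the first enzyme of the same route, stood at 250 ± 5.38 and 249 ± 2.43 CPM (SD, n = 3 each) and was not called (-0.01, SE 0.038, adjusted p = 0.882). Asns, asparagine synthetase, is a standard reporter of ATF4 activity. It stood at 78.9, 93.3 and 81.9 CPM in control and at 77.0, 90.4 and 80.8 CPM in Satb1 cKO, so that the groups overlapped across their range (log2 fold change -0.03, SE 0.073, adjusted p = 0.754).

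Of the 5 folate-dependent enzymes, 2 were called higher and 0 lower. Mthfd2, a mitochondrial dehydrogenase and cyclohydrolase that is abundant in proliferating cells, rose from 287, 281 and 289 CPM to 361, 359 and 358 CPM. Its libraries lay close together within each group, and the rise was 1.26-fold (log2 fold change 0.33, SE 0.036, adjusted p = 2.68e-05). Mthfd1, its cytosolic counterpart, rose from 351 ± 8.22 to 396 ± 10.6 CPM (0.17, SE 0.038, adjusted p = 0.00369). Shmt2, which feeds the mitochondrial route with the single carbon unit of serine, stood at 608, 649 and 659 CPM and at 673, 682 and 665 CPM. These ranges did not overlap, but the difference was not called (0.08, SE 0.038, adjusted p = 0.128). Shmt1 (0.01, SE 0.058) and Mthfd1l (-0.04, SE 0.039), a cytosolic and a mitochondrial enzyme of the same cycle, were not called either (adjusted p = 0.91 and 0.433).

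Of the 9 amino acid transporters, 7 were called higher and 0 lower, with a median log2 fold change of 0.36, and the 2 largest folds of the members were among them. Slc3a2, encoding the heavy chain CD98 that carries several light chain transporters to the cell surface, stood at 296, 307 and 316 CPM in control and at 449, 466 and 465 CPM in Satb1 cKO. The groups lay far apart, with a 1.5-fold rise (log2 fold change 0.59, SE 0.039, adjusted p = 6.34e-07). Slc7a5, encoding LAT1, the light chain that imports leucine and other large neutral amino acids, rose from 557, 581 and 592 CPM to 726, 777 and 766 CPM (0.39, SE 0.039, adjusted p = 1.51e-05). Slc7a1, an importer of arginine and lysine that works without CD98, rose from 479, 451 and 475 CPM to 582, 604 and 629 CPM (0.37, SE 0.041, adjusted p = 3.35e-05). These 3 genes kept their calls against a minimum of 1.2-fold (adjusted p = 1.36e-05, 0.00647 and 0.0202).

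Slc7a11, encoding the cystine light chain xCT that also pairs with CD98, had the largest fold of the members and the widest spread. It stood at 8.17, 11.7 and 8.56 CPM in control replicates 1, 2 and 3 and at 20.2, 11.7 and 19.3 CPM in Satb1 cKO. Satb1 cKO replicate 2 lay level with control replicate 2, while the other Satb1 cKO libraries lay above all controls. The fold was 1.81 (log2 fold change 0.86, SE 0.200, adjusted p = 0.00516). It was called without each library in turn, with log2 fold changes from 0.71 without Satb1 cKO replicate 1 to 1.06 without Satb1 cKO replicate 2. The summed level of the 14 myeloid markers was 208, 137 and 256 CPM in Satb1 cKO replicates 1, 2 and 3. Most of these markers were lowest in replicate 2, as Slc7a11 was. Among them were Lyz2 (62.3, 41.1 and 93.0 CPM), Mpeg1 (29.1, 12.65 and 39.5 CPM) and the macrophage receptor Csf1r (7.41, 2.35 and 7.12 CPM). The exceptions were S100a8 (3.10, 3.61 and 6.28 CPM) and S100a9 (5.15, 5.95 and 10.98 CPM), lowest in replicate 1, and Itgam (0.893, 0.801 and 0.785 CPM), lowest in replicate 3. The part of the myeloid markers in the level of Slc7a11 was not tested.

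Slc1a4, a carrier of alanine, serine and cysteine, rose from 43.9, 43.2 and 48.5 CPM to 56.5, 60.5 and 57.3 CPM (log2 fold change 0.36, SE 0.059, adjusted p = 0.00053). Slc38a1, a glutamine importer, rose from 470 ± 5.71 to 546 ± 9.08 CPM (SD, n = 3; 0.22, SE 0.034, adjusted p = 0.000383). Slc1a5, encoding the glutamine carrier ASCT2, stood at 617, 569 and 604 CPM and at 621, 680 and 694 CPM, so that the groups were separated by a narrow gap. It was called (0.16, SE 0.048, adjusted p = 0.0213), but not without control replicate 2, control replicate 3, Satb1 cKO replicate 2 or Satb1 cKO replicate 3 (adjusted p = 0.112, 0.057, 0.0777 and 0.0966). The glutamine carrier Slc38a2, whose transcript is a known target of ATF4, stood at 337 ± 10.9 and 325 ± 3.14 CPM and was not called (-0.05, SE 0.038, adjusted p = 0.287), though its Satb1 cKO libraries all lay below the controls. Slc7a6, another light chain partner of CD98, was not called (0.07, SE 0.059, adjusted p = 0.344) except without control replicate 1 (adjusted p = 0.0226).

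**Figure D3:**
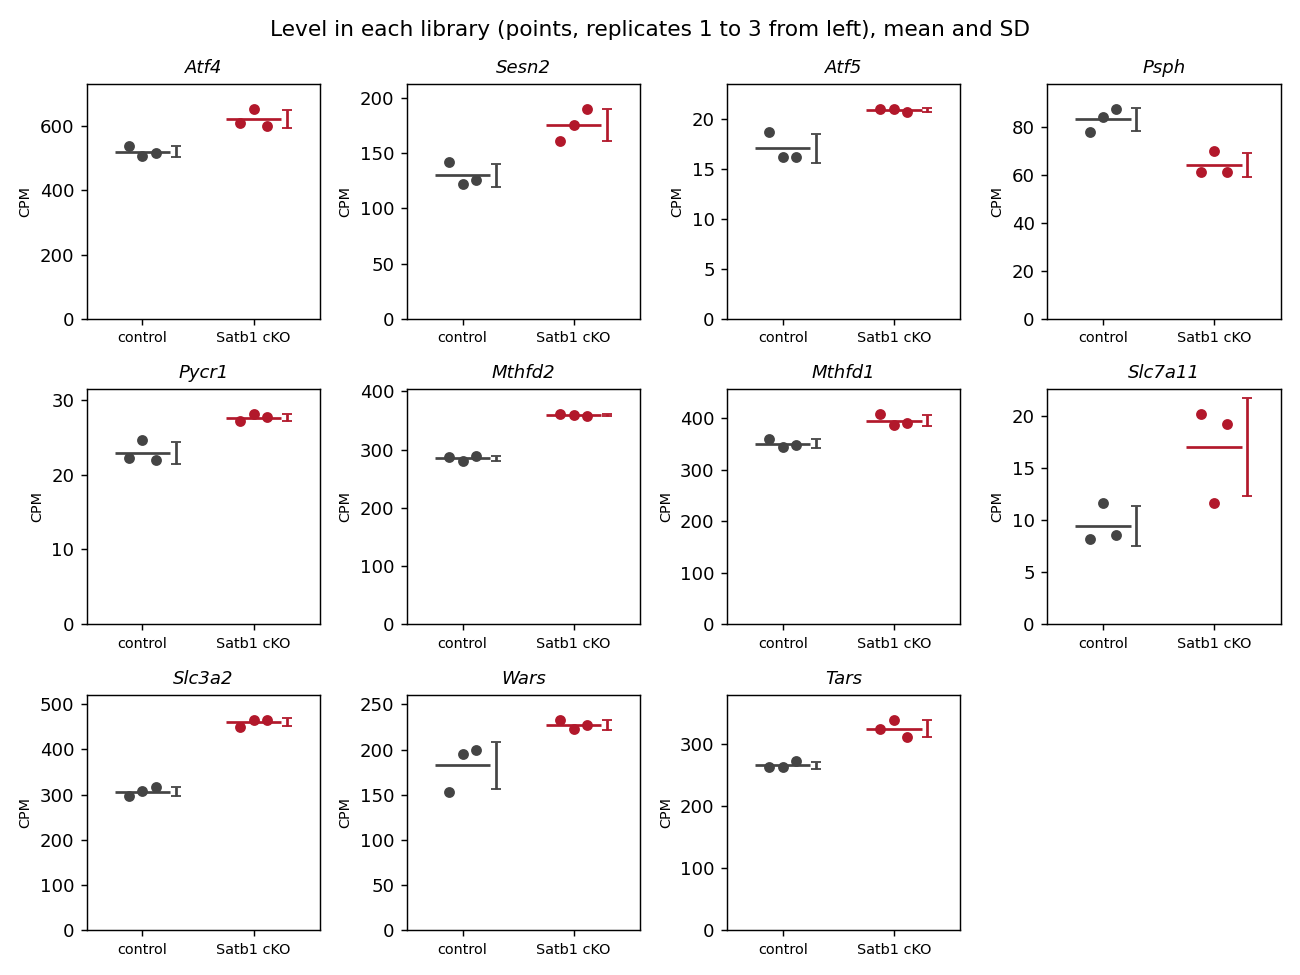
Level in each library (points, CPM, axes from 0; line and bar give mean and SD, n = 3) of Atf4 and of up to 2 called members with the largest absolute change in each role. The groups are separate in each panel except Slc7a11, where Satb1 cKO replicate 2 (11.7 CPM) lies level with control replicate 2.

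Cytosolic aminoacyl-tRNA synthetases load amino acids onto their tRNAs. Of 12, 9 were called higher, 0 lower and 3 neither way, all 12 log2 fold changes lay above 0 (0.01 to 0.32), and the summed level went from 4266 ± 59.2 to 4741 ± 28.0 CPM (SD, n = 3). Gars, the glycine enzyme, rose from 479, 496 and 493 CPM to 592, 598 and 585 CPM (0.27, SE 0.034, adjusted p = 7.1e-05). Tars, the threonine enzyme, rose from 264, 263 and 273 CPM to 324, 340 and 313 CPM (0.29, SE 0.042, adjusted p = 0.000253). In both the groups lay well apart. Yars, the tyrosine enzyme, rose from 191 ± 6.97 to 231 ± 1.59 CPM (0.27, SE 0.041, adjusted p = 0.000295).

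Wars, the tryptophan enzyme, which interferon also induces, had the largest fold of this role and an uneven control group. It stood at 152, 195 and 200 CPM in control and at 233, 222 and 227 CPM in Satb1 cKO (log2 fold change 0.32, SE 0.083, adjusted p = 0.00895). Control replicate 1 lay well below the other controls, and without it the log2 fold change was 0.20 (adjusted p = 0.00195). Cars (0.18), Aars (0.15), Iars (0.15) and Nars (0.14) rose with standard errors from 0.035 to 0.043. Exons of Aars share 15.1% of their bases with other genes, Exosc6 on the same strand among them. Lars rose least, from 333 ± 2.16 to 356 ± 4.24 CPM (0.10, SE 0.035, adjusted p = 0.0437). It lost its call without any 1 of the 6 libraries (adjusted p from 0.0521 to 0.155), in DESeq2 (0.08) and with libraries scaled by their totals (0.0526). Mars (0.08, SE 0.038), Sars (0.05, SE 0.039) and Eprs (0.01, SE 0.035) were not called (adjusted p = 0.138, 0.333 and 0.909). Against a minimum of 1.2-fold 0 of the 12 were called.

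Levels can be compared between genes only per length, here as CPM per kilobase of all annotated exons, which understates genes with long rare isoforms such as Eprs and Slc38a1. In control, Atf4 (220 ± 7.08), Phgdh (206 ± 6.69) and Shmt2 (205 ± 8.69) held the highest levels, followed by Gars (157 ± 2.96), Slc7a5 (156 ± 4.94) and Slc1a5 (143 ± 5.96 CPM per kilobase, SD, n = 3). Phgdh and Shmt2 did not differ beyond their spread, nor did Gars and Slc7a5. The lowest were Atf5 (8.58 ± 0.724), Pycr1 (5.81 ± 0.375), Ddit3 (5.57 ± 1.16) and Slc7a11 (0.680 ± 0.138 CPM per kilobase). Of the 37 neighbouring pairs in this order, 15 had overlapping control libraries. The partners of the leucine transporter stood at 156 (Slc7a5) and 86.8 (Slc3a2) CPM per kilobase in control and at 204 and 130 in Satb1 cKO.

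Further genes around these members were grouped into 10 lists, chosen with earlier results of these data known. Their calls stand beside 21.6% of all tested genes called higher and 20.7% called lower. Of 11 other cytosolic synthetases and scaffold proteins, 7 were called higher and 1 lower, with Hars, Rars and Farsa of smallest p (log2 fold changes of 0.25, 0.24 and 0.27) and Vars lower (-0.11, SE 0.036, adjusted p = 0.0304). Calls on this list numbered 5, all higher, without control replicate 3 and without Satb1 cKO replicate 1. Of 17 mitochondrial synthetases, 1 was called higher and 5 lower, with a median of -0.02. This list held 3 calls, all lower, without control replicate 2 or without Satb1 cKO replicate 1, and 2 in DESeq2. Whether the cytosolic and mitochondrial lists differ from each other was not tested.

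Upstream of ATF4, 8 of 14 genes of eIF2, its kinases, its exchange factor and its phosphatase were called higher and 0 lower. Ppp1r15a, encoding GADD34, the stress-induced subunit that directs dephosphorylation of eIF2, rose from 44.1, 46.9 and 46.3 CPM to 58.1, 76.5 and 82.0 CPM (0.66, SE 0.105, adjusted p = 0.00045). Eif2b3, a subunit of the exchange factor, rose by 0.52 (SE 0.066). Of the 4 eIF2 kinase genes, Eif2ak1 was called higher (0.14, adjusted p = 0.0457). Eif2ak2 (-0.21, adjusted p = 0.219), Eif2ak3, encoding PERK (0.11, adjusted p = 0.259), and Eif2ak4, encoding GCN2 (-0.11, adjusted p = 0.129), were not called. The kinase genes were named after their values were seen. The list held 4 calls without control replicate 2 and 5 without control replicate 3, without Satb1 cKO replicate 3, in DESeq2 and with total or upper quartile scaling.

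Of 19 tested partners and further stress targets of ATF4, 11 were called higher and 1 lower. Atf3, a factor induced by stress and by activation, rose from 40.2, 44.9 and 43.9 CPM to 145, 165 and 158 CPM (log2 fold change 1.86, SE 0.061, adjusted p = 4.99e-09), a larger difference than in any of the 38 members. Nfil3 rose by 1.65 (SE 0.186), and Cebpa, better known from myeloid cells, from 0.372 ± 0.094 to 2.95 ± 0.562 CPM, beside the rise of the myeloid markers given above. Vegfa fell by 0.42 (SE 0.060). Of 20 chaperones and sensors of endoplasmic reticulum stress, 14 were called higher and 1 lower, with a median of 0.36. Calr, a calcium-binding chaperone, rose from 745 ± 14.7 to 1094 ± 22.4 CPM (0.55, SE 0.032, adjusted p = 2.71e-07), Hspa5, encoding BiP, from 787 ± 23.0 to 1045 ± 22.8 CPM and Pdia6 from 209 ± 7.15 to 292 ± 4.20 CPM. Dnajc3 fell (-0.13, SE 0.046, adjusted p = 0.0439). Of 6 markers of plasma cells, which are rich in such chaperones, 5 were also called higher. The summed level of the 6 went from 98.3 to 115 CPM in control to 126 to 148.5 CPM in Satb1 cKO. Most of this sum is Xbp1, which was not called (101 ± 9.03 and 108 ± 6.86 CPM) and is also on the endoplasmic reticulum list. Jchain rose from 0.750 ± 0.713 to 8.15 ± 1.98 CPM and Ighg1 from 0.158 ± 0.096 to 7.63 ± 2.05 CPM. The part of plasma cells in the level of the chaperone genes was not tested.

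Of 26 tested genes of the wider folate, methionine and nucleotide routes, 3 were called higher and 7 lower, with a median of -0.01. Tyms, which makes thymidylate in dividing cells, fell from 50.7 ± 2.51 to 34.6 ± 0.779 CPM (-0.55, SE 0.058, adjusted p = 2.27e-05). Fpgs, which traps folates in the cell, rose by 0.52 (SE 0.061), and Mat2a, which makes S-adenosylmethionine, by 0.32 (SE 0.046). The list held 6 calls without control replicate 2. Of 20 genes of glutamine, aspartate and arginine metabolism, 8 were called higher and 3 lower. Odc1, the entry enzyme of polyamine synthesis, rose from 921, 806 and 785 CPM to 1300, 1315 and 1319 CPM (0.65, SE 0.052, adjusted p = 2.88e-06). Bcat1, which transaminates leucine and its relatives, rose by 0.58 (SE 0.072) and Glul, glutamine synthetase, by 0.37 (SE 0.048). Ass1, which makes argininosuccinate, fell by 0.29 (SE 0.048).

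Of 20 tested further amino acid transporters, 6 were called higher and 3 lower, while 11 of the 31 listed had too few reads to be tested. Slc43a1, encoding the leucine carrier LAT3, rose from 2.86, 3.69 and 2.40 CPM to 13.7, 14.7 and 16.1 CPM (log2 fold change 2.31, SE 0.154, adjusted p = 6.68e-07). Slc36a4 fell (-0.77, SE 0.081), as did Slc38a9, a lysosomal arginine sensor of mTORC1 (-0.41, SE 0.087). Of 33 genes of mTORC1 and its amino acid sensors, 5 were called higher and 7 lower. The share higher lay below the 21.6% of all tested genes, and the share lower lay near their 20.7%. Sesn3 and Sesn1, relatives of Sesn2, went the other way from it. Sesn3 fell from 250, 307 and 285 CPM to 135, 152 and 144 CPM (-0.97, SE 0.071, adjusted p = 1.58e-06), and Sesn1, named after its values were seen, fell from 42.0 ± 3.24 to 32.9 ± 2.71 CPM (-0.35, SE 0.078, adjusted p = 0.00405). Of 18 tested genes of MYC and its network, 8 were called higher and 1 lower. Myc, which drives many transporter and synthetase genes in activated T cells, rose from 523, 442 and 475 CPM to 645, 627 and 624 CPM (0.40, SE 0.053, adjusted p = 0.000137), and its partner Max fell by 0.31 (SE 0.058).

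**Figure D4:**
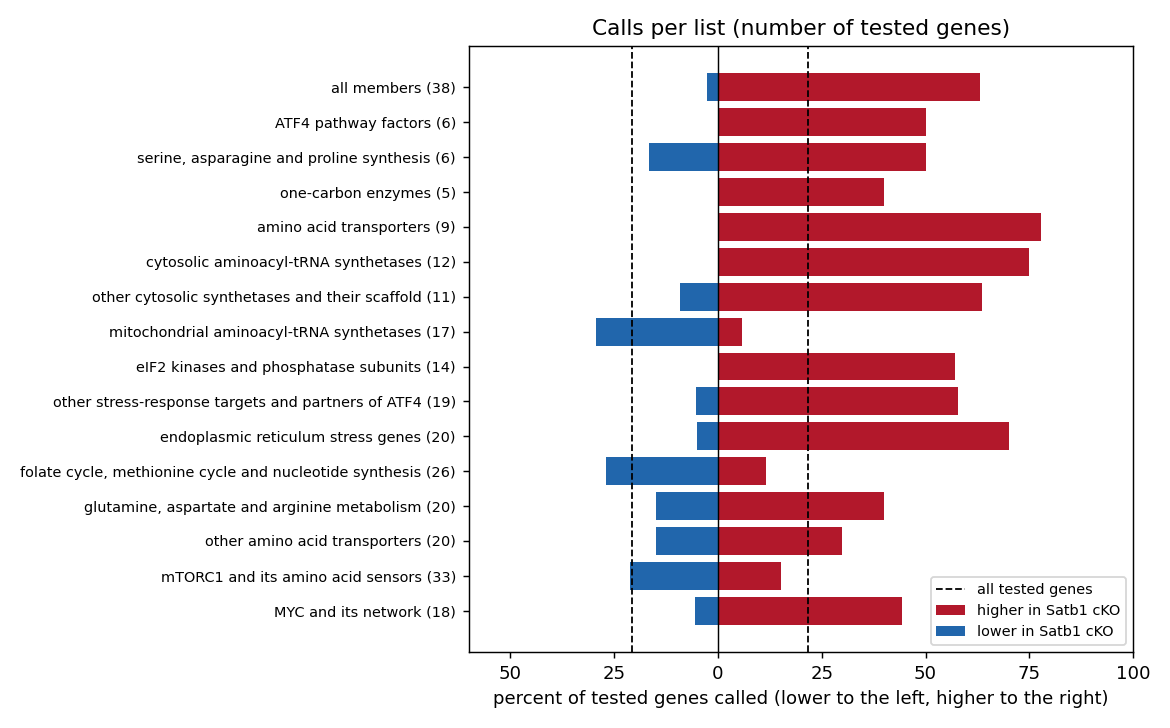
Percent of tested genes called higher (right) or lower (left) in each list, with the number tested in parentheses and dashed lines at the shares over all tested genes (21.6% and 20.7%). Members and lists were chosen with earlier results of these data known. The 5 member roles and, among the other lists, all but mitochondrial synthetases, folate and nucleotide genes and mTORC1 genes reach past the right dashed line, whereas mitochondrial synthetases, the folate and nucleotide list and, barely, the mTORC1 list reach past the left one.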

How the data were processed

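RNA was sequenced from 3 control and 3 Satb1 cKO samples, grouped by their titles. The authors deposited raw counts of reads per gene, 1 table per library, without normalization. The submitters' processing notes name STAR 2.7.3a, HTSeq 0.12.4 and the build mm10; neither annotation release nor strandedness is given in the sources used here. Lines that name no gene (reads on no feature, ambiguous reads at 5.40 to 5.57% and reads with several alignments at 2.92 to 3.16% of each table) were kept out. HTSeq in its usual mode drops ambiguous reads, which lowers counts where genes overlap.

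Symbols, positions and exon lengths came from GENCODE M21 (GRCm38), which placed 55141 of 55401 genes. Where a symbol had several identifiers (Ddit3), the one with the most exon bases was used. The other held 0 reads, but reads on exons of both would be ambiguous and dropped in HTSeq's usual mode. Counts were fitted in edgeR 4.0.16 (R 4.3.3): filterByExpr left 13364 genes, libraries were scaled by TMM, and glmQLFit and glmQLFTest compared the groups with group as the only term. A gene was called where its p, adjusted by Benjamini-Hochberg over all tested genes, was under 0.05, and all adjusted p-values come from this test unless another is named. Each standard error is the absolute log2 fold change over the root of F. The fit was tested on simulated data, in which far fewer genes changed than were called here. It recovered 13 of 48 changes of 1.2-fold (27.1%), 26 of 48 of 1.5-fold (54.2%) and 46 of 49 of 4-fold (93.9%). Of its 130 calls, 10 were false. DESeq2 1.42.0, other scalings and filters, a replicate block, a minimum fold of 1.2 and leaving out each library were tried. Members and lists were chosen with earlier results of these data known. Genes named from the other lists were called, up to 3 of smallest p per direction; Sesn1, the eIF2 kinases and the marker genes were added after their values were seen. Within groups no libraries were identical, and pairs differed beyond sampling noise (chi-square divided by its degrees of freedom, 2.09 to 6.90). Some genes of the other lists are not reported here by name.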

Additional observations from a re-analysis of the deposited data

How the results depend on the processing

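The 25 calls among the 38 members ranged from 22 to 25 when each library was left out in turn, and the 5651 calls over all genes from 4671 to 5835; no member changed direction and call together under the alternatives run. Other scalings, other filters on low counts and DESeq2 gave 24 or 25 calls among members, of which 23 to 25 were shared with the calls above. The sizes are the weak point. Against a minimum fold of 1.2 (glmTreat), calls fell to 2343 over all genes (17.5% of those tested) and 5 among the 38 members. By list they fell to 1 of 6 ATF4 pathway factors, 0 of 6 serine, asparagine and proline enzymes and 0 of 5 one-carbon enzymes. They fell to 4 of 9 amino acid transporters and 0 of the 12 cytosolic synthetases of the members. They fell to 0 of 11 other cytosolic synthetases, 1 of 17 mitochondrial synthetases, 2 of 14 eIF2 genes, 5 of 19 other ATF4 targets and 4 of 26 folate and nucleotide genes. They fell to 6 of 20 glutamine and arginine genes, 4 of 20 other transporters, 3 of 33 mTORC1 genes and 2 of 18 MYC genes. The count for the endoplasmic reticulum stress genes is not given here. Each such count is smaller by construction, since the alternative asks for a larger change. Mitochondrial synthetases held 2 calls in DESeq2. The eIF2 genes held 5 calls with total scaling, 5 with upper quartile scaling, 5 with no filter on low counts and 5 in DESeq2; the cause was not tested. With each library left out, calls ranged from 2 to 4 among ATF4 pathway factors, from 5 to 7 among other cytosolic synthetases, from 3 to 6 among mitochondrial synthetases, from 4 to 7 among eIF2 genes and from 6 to 13 among folate and nucleotide genes. The strict motif TGATGCAA was found in 8 members and the relaxed form in 11.

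Libraries of both groups are numbered 1 to 3. Same-numbered libraries deviated from their group means with correlations of 0.024, -0.016 and 0.031 across genes. Not every library correlated best with its own number. These values give no clear sign that the numbers pair the samples, but with 3 libraries per group they cannot exclude a pairing. With the replicate number as a block, 26 members and 5563 genes were called, and Trib3 passed the test (adjusted p = 0.00312). At 132 to 13827 reads per member and library, counting error is largest for Slc7a11 and Ddit3.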
